A study of Mus musculus with 5 samples.

Results

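The NRF2 pathway and glutathione chemistry were followed through 10 genes in single nuclei of mouse liver. They are the 10 rows, of 32285 genes counted, whose symbol is Nfe2l2, Nqo1, Gclc, Gclm, Gsta1, Gstm1, Gstm3, Srxn1, Txnrd1 or Hmox1, and the rule that picks these rows reads symbols only. The symbols themselves were chosen with earlier results of these data known. The nuclei came from wild-type male C57BL6/J mice. The chow group (3 libraries) ate regular chow, and the MASH group (2 libraries) ate a diet used to induce MASH (metabolic dysfunction-associated steatohepatitis, a fatty liver with inflammation), with 40 kcal% of fat, 20 kcal% of fructose and 2% of cholesterol. Feeding began at an age of 10 to 12 weeks and lasted 5 months. Whether a library was made from 1 mouse or from pooled livers was not stated for these samples. The library was therefore the replicate, and p-values of diet comparisons measure the spread between libraries. Those of comparisons between groups of nuclei of the same library measure how the differences within libraries varied from library to library.

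NRF2, the protein made from Nfe2l2, is a transcription factor that KEAP1 holds in the cytoplasm and delivers to the proteasome. Oxidants and electrophiles modify KEAP1, after which NRF2 enters the nucleus, pairs with a small MAF protein and binds antioxidant response elements near genes for glutathione synthesis, conjugation and repair of oxidized proteins. Much of its control is on the protein, so the RNA of Nfe2l2 and the RNA of its targets are separate readouts. In the liver these enzymes detoxify drugs and lipid peroxides, and many conjugating enzymes are known to be higher around the central vein than around the portal tract.

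The core of the antioxidant response element is shown because it is the sequence through which NRF2 reaches its targets. The motif searched was TGACNNNGC, or GCNNNGTCA on the opposite strand, in RefSeq windows of GRCm38.p6 from 250 bases before to 50 bases after each start site. It was found in 12.4% of 32851 such windows, and 14.0% of 27025 genes had it in at least 1 window. In the table, 8 members had 11 windows, and 4 members held the motif once each. The motif is in capitals, with 10 bases on either side, and each sequence reads 5′ to 3′ on the strand of its gene.

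Nfe2l2: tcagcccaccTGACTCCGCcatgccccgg
Gclm: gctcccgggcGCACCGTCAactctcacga
Srxn1: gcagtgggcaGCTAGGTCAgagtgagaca
Txnrd1: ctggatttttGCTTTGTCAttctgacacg

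These stretches lie at chr2:75704885-75704913 (minus strand) for Nfe2l2, chr3:122245413-122245441 (plus strand) for Gclm, chr2:152105542-152105570 (plus strand) for Srxn1 and chr10:82859104-82859132 (plus strand) for Txnrd1. The Nfe2l2 motif starts 240 bases before the start site and reads along the gene. The other 3 read on the opposite strand. Gclm has it 134 bases and Txnrd1 92 bases before the start, and Srxn1 has it 29 bases after the start. This Txnrd1 start is 1 of several listed and lies inside the gene, and the windows of its other starts did not contain the motif. The windows of Nqo1, Gsta1, Gstm1 and Gstm3 did not contain these letters, and a match describes the sequence without showing that NRF2 binds there.

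Hepatocyte nuclei were those with at least 2000 UMIs (unique molecular identifiers, each standing for 1 captured RNA molecule) and at least 1 UMI of Hnf4a, a hepatocyte transcription factor. There were 3825, 5930 and 6253 of them in Chow 1, 2 and 3 and 2347 and 2235 in MASH 1 and 2, with median depths from 3866.5 to 5351 UMIs. They were 48.0% to 62.5% of the nuclei kept in chow and 20.4% and 21.5% in MASH. Exactly 1 Hnf4a UMI was found in 1773, 2439 and 2164 of the chow and 1457 and 1332 of the MASH ones. Nuclei of any kind at that depth without an Hnf4a UMI numbered 2154, 2313 and 1751 in chow and 3028 and 2681 in MASH. Macrophage nuclei (97 to 184 per chow library, 1252 and 870 in MASH) and endothelial nuclei (273 to 870 per library) had no Hnf4a UMI and at least 3 markers of their class. Hepatocyte RNA was present in every class: the summed level of 10 hepatocyte markers was 12646 to 17467 unscaled CPM (UMIs as a share of the summed UMIs of the class, without a further scaling factor) in chow and 7833 to 8652 in MASH hepatocyte nuclei, and 11723 to 25262 in chow and 6235 to 10522 in MASH macrophage nuclei, and Hnf4a, by definition of the gate, was at 0 in the latter. At least 2 markers of another class were found in 9.58% to 16.0% of chow hepatocyte nuclei and in 36.3% and 40.7% of MASH ones. Chow 3 stood apart from the other chow libraries, with 11019 CPM of the metallothionein gene Mt1 against 703 and 933 CPM. Pairs of libraries shared 23 to 48 barcodes.

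Within hepatocyte nuclei, the diets were compared on UMIs summed per library. Gstm3 and Nfe2l2 were higher in MASH and passed the test, and no member passed in the other direction. That is 2 of 10 members, where 12.1% of the 15141 genes tested were called (8.0% higher and 4.08% lower). The median log2 fold change was 0.38 over the members and -0.01 over all genes tested. There were 4 members, Nfe2l2, Nqo1, Gsta1 and Gstm3, in which the 2 MASH values exceeded the 3 chow values, and 29.0% of all genes had the same order.

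**Figure D1:**
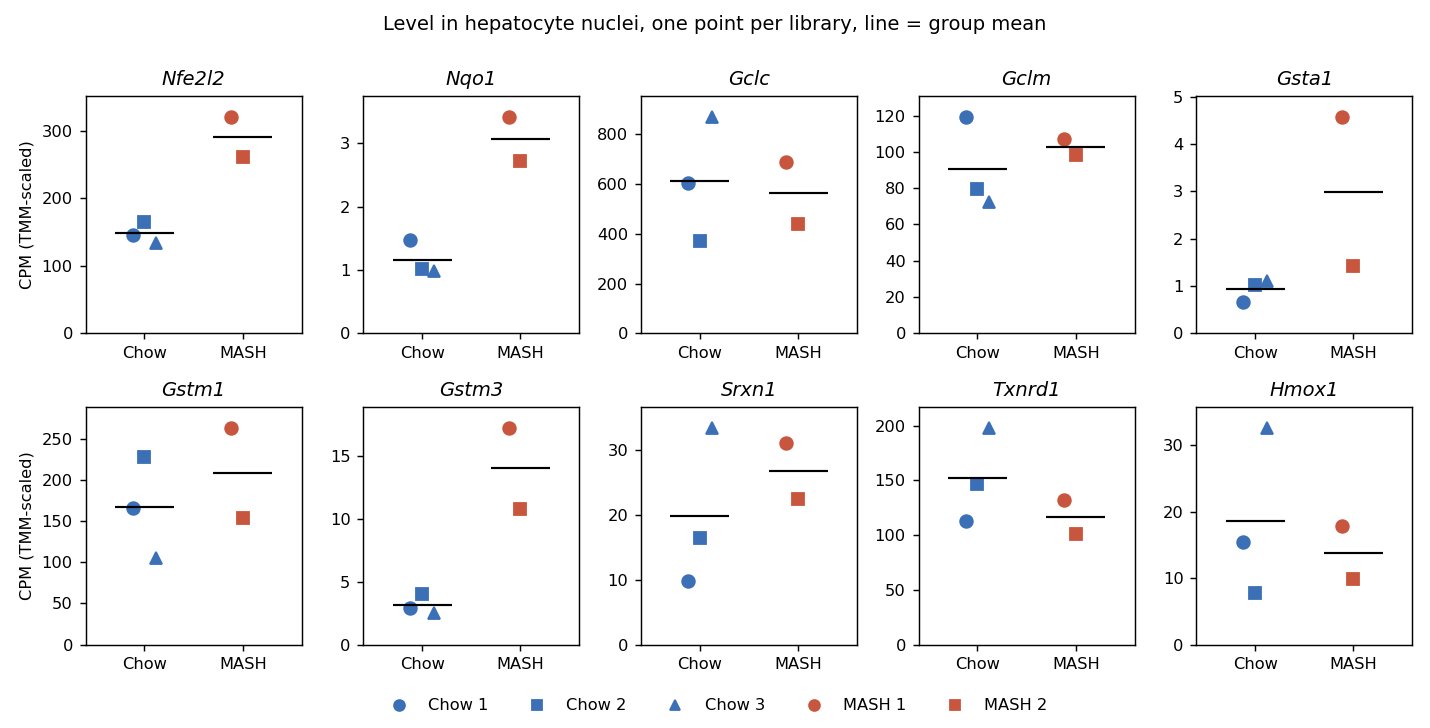
Level of each member in hepatocyte nuclei, in TMM-scaled CPM on a vertical axis that starts at 0, for each library (points) with the group mean (lines). The MASH points of Nfe2l2, Nqo1, Gsta1 and Gstm3 lie above the chow points, and the groups overlap for the other 6 members.

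The transcription factor came first. Nfe2l2 (chr2:75675513-75704641, minus strand) was at 146, 165 and 134 CPM in Chow 1, 2 and 3 and at 319.8 and 261 CPM in MASH 1 and 2. The groups were separate, with means of 149 ± 15.7 (SD, n = 3) and 291 ± 41.3 (SD, n = 2). Its log2 fold change was 0.97 (SE 0.25, adjusted p = 0.0470), which is 1.96-fold. The call was marginal: over the alternatives the adjusted p ran from 0.00794 to 0.393, and the call was lost without Chow 1 (adjusted p = 0.0520), Chow 2 (0.0866), MASH 1 (0.393) or MASH 2 (0.238). It was also lost with no filter on low counts (0.0504), with doublets kept (0.0511), with at least 2 Hnf4a UMIs required (0.0526) and under the replicate block (0.0748). Its fold change stayed between 0.81 and 1.11 without any 1 library.

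Glutathione S-transferases join glutathione to electrophiles, and 3 members belong to this family. Gstm3 (chr3:107963696-107969283, minus strand) had 2.93, 4.01 and 2.48 CPM in chow and 17.2 and 10.8 CPM in MASH. Both MASH libraries were more than 2-fold above the highest chow library, and the log2 fold change was 2.15 (SE 0.36, adjusted p = 0.0139). It rested on 233 UMIs in chow and 435 in MASH. The call was kept without any 1 chow library and lost without MASH 1 (1.78, adjusted p = 0.187) or MASH 2 (2.45, adjusted p = 0.0648).

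Gstm1 (chr3:108012255-108017973, minus strand), a mu-class neighbour of Gstm3, did not follow it. It had 166, 228 and 105 CPM in chow and 262 and 154 CPM in MASH, so the groups overlapped (log2 fold change 0.32, adjusted p = 0.599). Gsta1 (chr9:78230656-78242684, plus strand), an alpha-class enzyme, had 0.666, 1.02 and 1.11 CPM in chow and 4.57 and 1.42 CPM in MASH. The Gsta1 groups did not overlap, but MASH 2 lay close to chow and the log2 fold change of 1.67 did not pass (SE 0.58, adjusted p = 0.0978). It was 0.60 without MASH 1. Of the 91-base windows of Gsta1 transcripts, 81.8% also occur in transcripts of other genes, Gsta2 among them, so its counts are uncertain. The same share was 16.6% for Gstm3 and 8.20% for Gstm1.

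Glutamate-cysteine ligase makes the first and rate-limiting step of glutathione synthesis, with Gclc as its catalytic and Gclm as its modifier subunit. Gclc (chr9:77754535-77794485, plus strand) was at 604, 369 and 869 CPM in chow and at 688 and 440 CPM in MASH. The MASH values lay inside the chow range. Its log2 fold change was -0.12 (adjusted p = 0.870), and it was 0.22 when libraries were scaled by their size alone, so no direction can be given. Gclm (chr3:122245557-122270732, plus strand) had 119, 79.6 and 72.3 CPM in chow and 107 and 98.3 CPM in MASH (log2 fold change 0.19, adjusted p = 0.683). The 2 subunits thus showed no diet difference beyond the spread between libraries.

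The thioredoxin branch was represented by Srxn1, the sulfiredoxin that repairs over-oxidized peroxiredoxins, and Txnrd1, the cytosolic thioredoxin reductase. Srxn1 (chr2:152105516-152111376, plus strand) had 9.81, 16.5 and 33.4 CPM in chow and 31.1 and 22.5 CPM in MASH. Chow 3, the library with high Mt1, was the highest of the 5, and the log2 fold change of 0.43 (adjusted p = 0.569) was 1.02 without it (adjusted p = 0.0646). Txnrd1 (chr10:82833951-82897712, plus strand) had 113, 147 and 198 CPM in chow and 132 and 101 CPM in MASH (log2 fold change -0.39, adjusted p = 0.419). Chow 3 was again the highest.

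Nqo1 (chr8:107388225-107403206, minus strand), the quinone reductase often used as a readout of NRF2, was near the limit of detection. Hepatocyte nuclei gave 33, 26 and 26 UMIs of it in chow and 50 and 46 in MASH, or 1.47, 1.02 and 0.991 CPM against 3.41 and 2.72 CPM. The groups were separate and the log2 fold change was 1.40, but it did not pass (SE 0.43, adjusted p = 0.0715, from 0.0319 to 0.435 over the alternatives). Hmox1 (chr8:75093621-75100589, plus strand), which opens heme to biliverdin, iron and carbon monoxide, had 15.4, 7.74 and 32.5 CPM in chow and 17.8 and 9.87 CPM in MASH. Its groups overlapped (log2 fold change -0.42, adjusted p = 0.643), and the value was 0.23 without Chow 3, so no direction can be given for it.

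**Figure D2:**
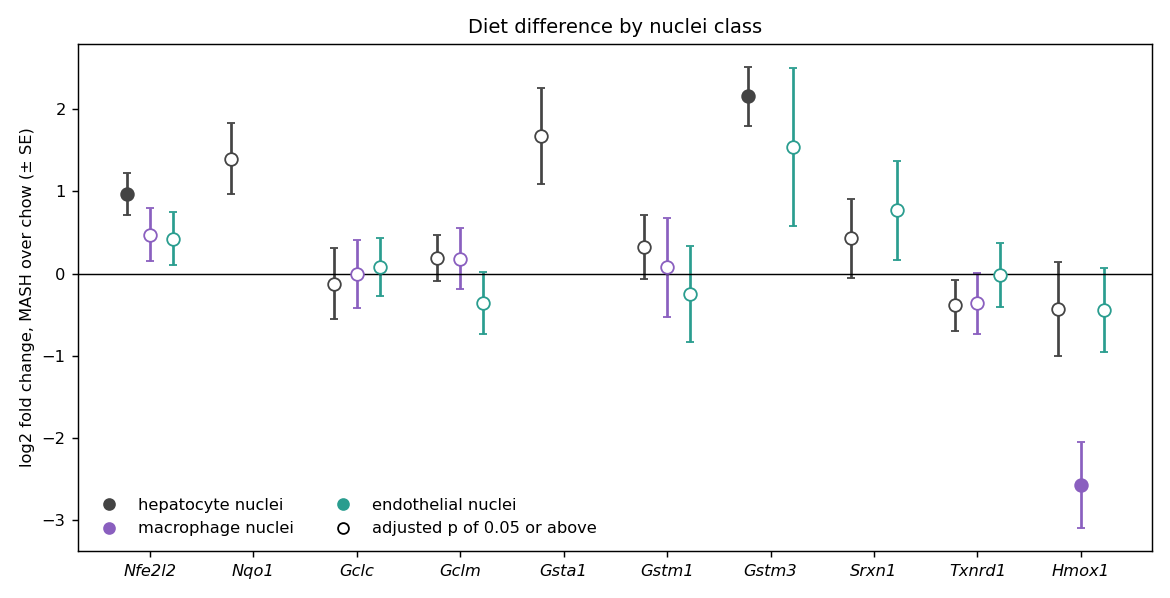
Log2 fold change of MASH over chow for each member (vertical axis, with bars of 1 SE) in hepatocyte, macrophage and endothelial nuclei, from sums of 3 chow and 2 MASH libraries. Filled points passed an adjusted p of 0.05: Gstm3 and Nfe2l2 in hepatocyte nuclei and Hmox1 in macrophage nuclei, and a missing point marks a gene too low to be tested.

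Scaling moved these values as a whole. Without TMM the median of all genes was 0.31 on the log2 scale, and the calls split into 1424 higher and 302 lower genes, against 1212 and 617 with TMM. Gstm3 (2.45) and Nfe2l2 (1.27) also passed with libraries scaled by size alone. Both passed when nuclei with 2 or more markers of another class were left out, at 1.99 and 1.04. Markers of most, but not all, other classes were higher in MASH in the same hepatocyte nuclei, in summed unscaled CPM. The 15 macrophage markers were at 63.2 to 79.4 in chow and 176 to 336 in MASH. The 10 stellate cell markers were at 79.5 to 85.2 and 192 to 203, and 8 cholangiocyte markers at 40.2 to 75.2 and 118 to 158. The 8 T and NK cell markers were at 1.09 to 2.07 and 7.07 to 8.87, and 6 B cell markers at 1.01 to 6.05 and 8.12 to 8.64. The 16 endothelial markers overlapped, at 121 to 330 in chow and 223 to 245 in MASH. The 10 hepatocyte markers were lower in MASH, as given above. The part of these shifts in the remaining difference was not tested.

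The wider pathway was described with 6 lists in the same hepatocyte diet comparison. The share called among all genes tested, 12.1%, stands beside each list. Of 11 regulators of NRF2, 1 rose and 1 fell. Bach1, a repressor that competes for the same DNA element, fell by 1.30 on the log2 scale (adjusted p = 0.0386), and Btrc, part of a ubiquitin ligase that can turn over NRF2, rose by 1.12 (adjusted p = 0.0422). Of 19 other transferases tested, 1 was lower and 18 did not pass. This was Gstp1, a pi-class transferase, which fell from 32.3, 33.0 and 41.2 CPM to 12.6 and 7.27 CPM (log2 fold change -1.84, adjusted p = 0.0154). Gstp1 and Gstm3 therefore passed in opposite directions.

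Among 17 genes tested for glutathione cycling and its sulfur supply, 2 fell. Cbs, which starts the conversion of homocysteine toward cysteine, fell by 1.64 on the log2 scale (adjusted p = 0.0122), and Gnmt, which uses S-adenosylmethionine to methylate glycine, fell by 2.07 (adjusted p = 0.0147). In the thioredoxin and peroxiredoxin list, 1 of 12 rose: Sesn2, a stress-induced sestrin, by 1.02 (adjusted p = 0.0482).

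Of 19 further targets attributed to NRF2, 2 rose and 1 fell. Cbr3, a carbonyl reductase, went from 0.0888, 0.157 and 0.267 CPM (2, 4 and 7 UMIs) to 3.41 and 2.07 CPM (50 and 35 UMIs), a log2 fold change of 3.94 (adjusted p = 0.0102). Ephx1, the microsomal epoxide hydrolase, rose by 1.28 (adjusted p = 0.0360). Mt1 fell by 5.95 (adjusted p = 0.0407), and by 3.59 without Chow 3 (adjusted p = 0.00263). The list's median was 0.21. In the last list, of genes for heme breakdown and heme synthesis, 0 of 6 were called. Each of the 9 genes named from the lists had an adjusted p above 0.05 without MASH 1 and without MASH 2.

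The share of hepatocyte nuclei with a UMI was compared too. With every nucleus thinned to 2000 UMIs, Nfe2l2 was found in 26.3%, 24.6% and 17.4% of chow nuclei and in 46.6% and 42.9% of MASH nuclei. Gstm3 was found in 0.652%, 0.823% and 0.400% against 3.45% and 1.90%. Nfe2l2, Nqo1, Gsta1 and Gstm3 had separate groups, as in CPM (two-sided exact permutation p = 0.1 each, the smallest that 3 against 2 libraries allow, and 0.25 after Benjamini-Hochberg adjustment over the members). These shares were computed for the members only, so no count over all genes stands beside them. In CPM, the MASH values all exceeded the chow values in 29.0% of all genes. The scales differed for Gclc, whose mean share was 57.0% in chow and 63.6% in MASH with overlapping groups, whereas its log2 fold change in CPM was -0.12. Unthinned, the Nfe2l2 shares were 37.9% to 51.9% in chow and 73.3% and 73.7% in MASH, at median depths of 3866.5 to 5351 UMIs. In endothelial nuclei, whose median depths were 946 to 1278 UMIs, 13.2% to 17.9% had an Nfe2l2 UMI. At an equal depth of 1000 UMIs, Nfe2l2 was found in 9.25% to 14.4% of chow and 25.1% and 27.9% of MASH hepatocyte nuclei, and in 8.53% to 11.5% and 10.2% and 10.8% of endothelial nuclei. Thinning to that depth left out 0 hepatocyte nuclei and 54 to 407 endothelial nuclei per library, so the endothelial shares are those of the deeper nuclei. For Gstm3 the MASH shares at that depth were 1.83% and 1.0% in hepatocyte nuclei and 2.62% and 0.622% in endothelial nuclei, so that MASH 1 had the higher share in endothelial nuclei and MASH 2 in hepatocyte nuclei.

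The second question was where in the lobule the members were expressed. In each library the hepatocyte nuclei were ranked by pericentral minus periportal markers and divided into 3 equal zones, and the pericentral zone was compared with the periportal zone within libraries. No member was among those markers. Whether a zone covers the same part of the lobule in both diets was not tested. In unscaled CPM, the pericentral marker Glul was at 231 to 323 in the chow and 896 and 1059 in the MASH pericentral zone. Cyp2e1 overlapped there, at 1242 to 3670 and 1681 and 2379. In the middle zone the periportal marker Hal was at 147 to 402 in chow and 75.3 and 44.8 in MASH. In the pericentral zone 5 members were higher, where 23.6% of 14221 genes were called (12.5% higher and 11.1% lower). No member was called lower.

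**Figure D3:**
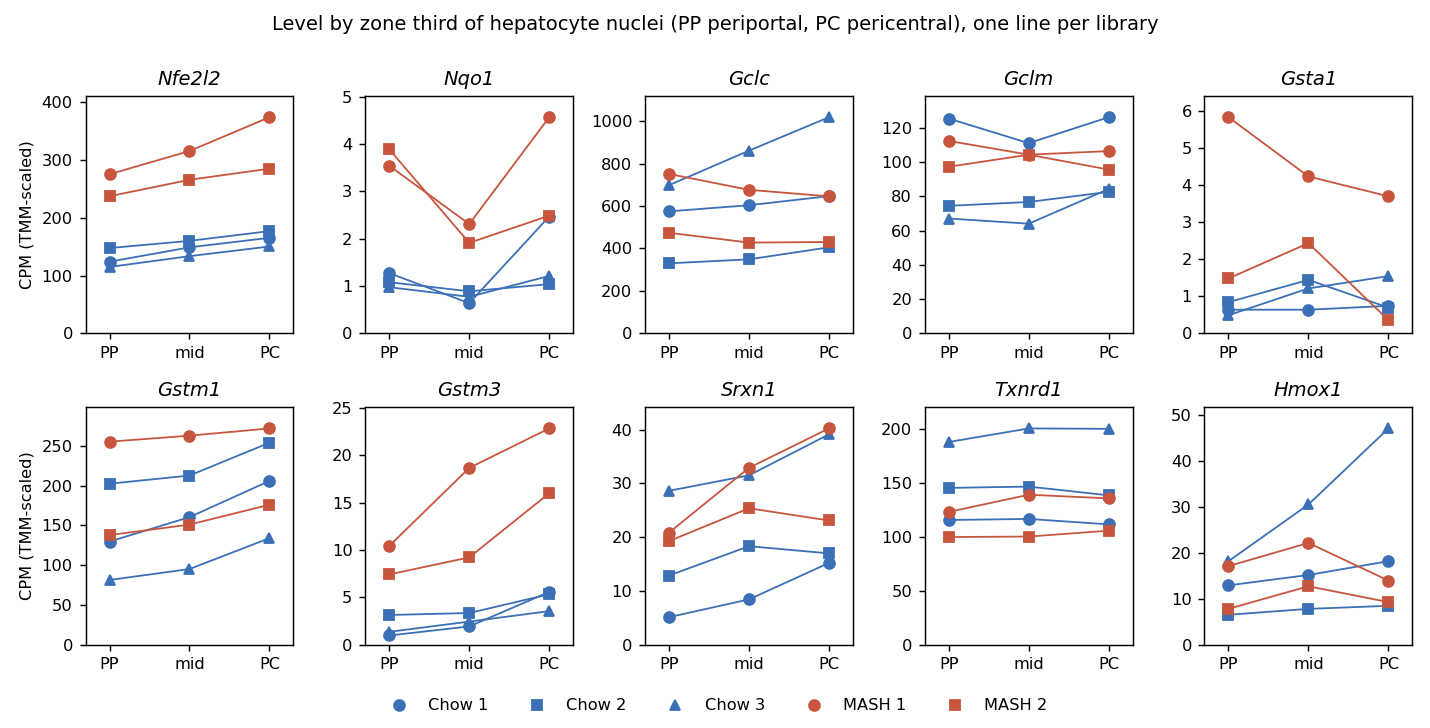
TMM-scaled CPM of each member in the periportal (PP), middle and pericentral (PC) zone of hepatocyte nuclei, 1 line per library, on vertical axes that start at 0. Gstm3, Gstm1, Srxn1 and Nfe2l2 ended higher at PC than at PP in all 5 libraries, and Gclc ended higher at PC in the 3 chow libraries and lower in the 2 MASH libraries.

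Gstm3 had the steepest gradient of the members that passed. From periportal to pericentral it went from 0.954 to 5.55, 3.12 to 5.31 and 1.34 to 3.53 CPM in Chow 1, 2 and 3. In MASH 1 and 2 it went from 10.4 to 22.8 and from 7.41 to 16.0 CPM. It was higher in all 5 libraries (log2 ratio 1.24, SE 0.18, adjusted p = 5.3e-05). The lowest MASH value, periportal, was above the highest chow value, pericentral.

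Nfe2l2 was higher in the pericentral zone of all 5 libraries by a smaller amount, 0.35 (adjusted p = 1.15e-05), with ratios from 0.26 to 0.44. Gstm1 was higher by 0.39 (adjusted p = 5.91e-05) and Srxn1 by 0.63 (adjusted p = 0.00155), both in 5 of 5 libraries. Srxn1 lost its call without MASH 1 (adjusted p = 0.113). Hmox1 was higher in 4 of 5 libraries by 0.42 (adjusted p = 0.0434) and lost its call without Chow 3 (0.306), MASH 1 (0.0999) or MASH 2 (0.333). For Nqo1, Gclc, Gclm, Gsta1 and Txnrd1 the values were between -0.14 and 0.17 and did not pass.

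Other transferases were also zoned. In the list, 9 of 19 were higher in the pericentral zone and 2 were lower. Among all genes tested, 12.5% were higher and 11.1% lower. Gstm2 (1.48, adjusted p = 5.69e-07), Gsta3 (1.01, adjusted p = 3.39e-08) and Gstt3 (0.79, adjusted p = 0.000156) were the 3 called transferases with the largest absolute differences. Genes of glutathione cycling went both ways, with 3 of 18 higher and 5 lower, and 9 of 19 further NRF2 targets were higher and 1 lower.

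The zonal slope of 1 member differed between the diets. Gclc was 0.34 higher (SE 0.07, adjusted p = 0.000860) in the pericentral zone of chow liver and -0.18 (SE 0.08, adjusted p = 0.200) in MASH. Its log2 ratios were 0.17, 0.30 and 0.55 in the chow libraries and -0.22 and -0.14 in the MASH libraries, with no overlap. The difference between the slopes was -0.52 (SE 0.11, adjusted p = 0.00685), and 5.51% of all genes were called in this interaction. It was lost without MASH 1 (adjusted p = 0.173) or MASH 2 (0.105). In chow periportal nuclei Gclc was at 575, 330 and 698 CPM and in pericentral nuclei at 646, 405 and 1019 CPM, against 751 and 474 and then 646 and 430 CPM in MASH. The bearing of any mismatch of the zones between the diets on this slope was not tested.

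Hmox1 had a pericentral excess of 0.91 in chow and -0.07 in MASH (difference -0.99, adjusted p = 0.0556, from 0.000748 to 0.572 over the alternatives). In Chow 3 its pericentral level was 47.1 CPM against 18.1 CPM periportally. Nfe2l2 had slopes of 0.35 in chow and 0.35 in MASH. Tested within each diet, 6 members were higher pericentrally in chow (13.5% of genes) and 2 in MASH, Nfe2l2 and Gstm3 (6.29% of genes). When the diets were compared inside each zone, Gstm3 passed in all 3 (2.29 periportal, 2.44 middle, 2.03 pericentral). The members called were 3 periportally (11.7% of genes), 1 in the middle (9.39%) and 1 pericentrally (7.63%). Nfe2l2 passed in the periportal zone (1.01, adjusted p = 0.0418) and had 0.99 and 1.02 in the others (0.0502 and 0.0547). Nqo1 passed in the periportal zone (1.75, adjusted p = 0.0460), whereas its zone by diet interaction did not pass (adjusted p = 0.615).

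Within MASH, hepatocyte nuclei were also split by genes that mark disease-associated hepatocytes, Nrg1, Anxa2, Sox4, Gdf15 and Klf6. Nuclei with at least 2 of these 5 markers (1215 and 1112) were compared with nuclei that had none (451 and 436). Srxn1 and Gstm3 were higher in the marker-bearing nuclei, 2 of 10 members, where 6.09% of 12865 genes were called (2.50% higher and 3.59% lower). Srxn1 went from 21.6 to 40.0 CPM in MASH 1 and from 17.4 to 30.5 CPM in MASH 2 (log2 ratio 0.85, adjusted p = 0.00111). Gstm3 went from 14.7 to 21.5 and from 6.47 to 15.3 CPM (0.82, adjusted p = 0.0373). Nfe2l2, at 0.16, did not pass (adjusted p = 0.247).

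The marker-bearing nuclei were deeper, with medians of 5704 and 6349 UMIs against 3779 and 3985, and more of them carried 2 markers of another class (42.0% and 45.8% against 31.7% and 34.9%). Limited to nuclei of 3000 to 6000 UMIs, Srxn1 was 1.12 higher (adjusted p = 0.00179) and Gstm3 0.69 (adjusted p = 0.321). Only 2 libraries entered this comparison.

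Hmox1 was lower in MASH in macrophages, which take up heme from old red cells. Its level in macrophage nuclei was 225, 164 and 519.6 CPM in chow (46, 23 and 145 UMIs) and 59.6 and 43.9 CPM in MASH (110 and 68 UMIs). Every chow library was above both MASH libraries, an order found in 13.5% of the genes tested. Hmox1 fell by 2.57 on the log2 scale (SE 0.52, adjusted p = 0.0493). It was 1 of 6 members tested there, and 1.36% of 6334 genes were called. The adjusted p was above 0.05 with RLE size factors (0.0508) and a gate of 4 markers (0.0568), and was 0.102 without Chow 1, 0.235 without MASH 1 and 0.537 without MASH 2. Without Chow 3, the highest library, the fall was 1.89 (adjusted p = 0.0185).

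The difference between classes was tested directly. The diet difference of Hmox1 in macrophage nuclei minus that in hepatocyte nuclei was -2.12 (SE 0.33, adjusted p = 0.000272), with 3.06% of 12558 genes called, and it passed without any 1 library (-2.04 to -2.35, adjusted p up to 0.0293). This test was added after the data were seen. The same contrast for endothelial nuclei was -0.06 (adjusted p = 0.982), with 0 members and 1.97% of genes called. Nfe2l2 passed neither contrast, at -0.50 for macrophage (adjusted p = 0.557) and -0.57 for endothelial nuclei (0.513). Nor did Gstm3, at -0.23 (adjusted p = 0.959) and -0.70 (0.832). A diet difference particular to hepatocyte nuclei was therefore not shown for these 2 members.

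**Figure D4:**
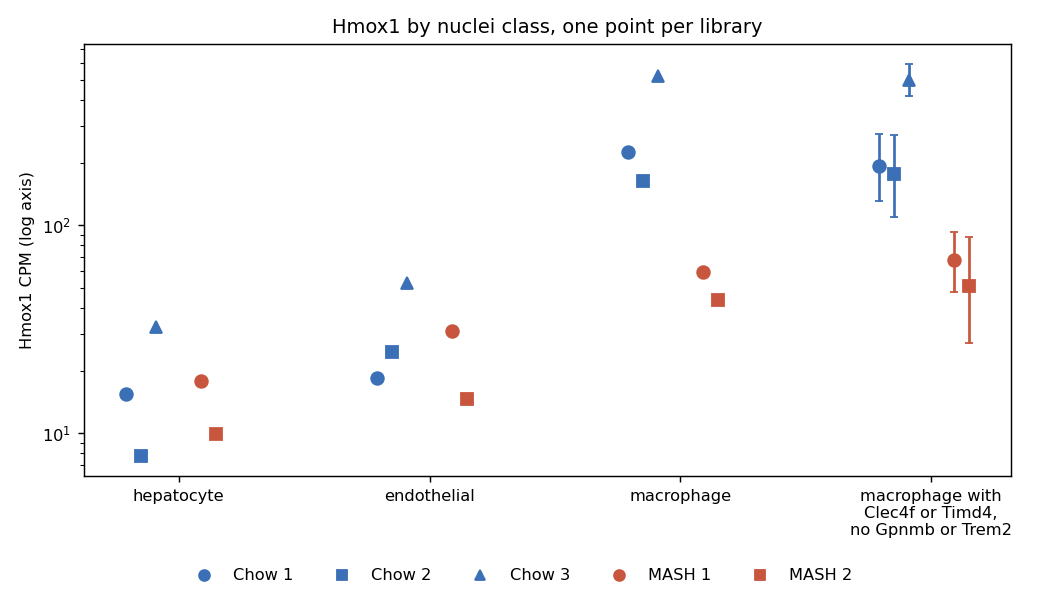
Hmox1 level per library (points, CPM on a log axis) in hepatocyte, endothelial and macrophage nuclei (TMM-scaled), and in macrophage nuclei with a UMI of Clec4f or Timd4 and none of Gpnmb or Trem2 (unscaled, with exact 95% Poisson intervals of the counts). Both MASH points lie below all chow points in the 2 macrophage columns, and the groups overlap in the hepatocyte and endothelial columns.

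Macrophage make-up differs between the diets, so the nuclei were divided by markers. Clec4f and Timd4 mark resident Kupffer cells, and Gpnmb and Trem2 mark lipid-associated macrophages. In nuclei with the first pair and without the second, Hmox1 was, in unscaled CPM, at 193 (95% interval 131 to 274), 177 (109 to 269.9) and 501 (416 to 598) in chow and at 67.7 (47.9 to 92.9) and 51.1 (27.2 to 87.3) in MASH. These intervals cover counting error only and did not overlap between the diets. In MASH, nuclei with Gpnmb or Trem2 but neither Kupffer marker were at 52.2 and 48.9 unscaled CPM. Chow had 9, 1 and 2 such nuclei, with 11, 0 and 2 Hmox1 UMIs, too few to compare. Nuclei with UMIs of both pairs were left out of the split. In macrophage nuclei with no UMI of either pair (17, 20 and 33 in chow, 491 and 260 in MASH) the groups overlapped. Hmox1 was there at 156, 25.6 and 234 unscaled CPM in chow, from 4, 1 and 11 UMIs, and at 30.2 and 28.3 in MASH. Chow 2 was there below both MASH libraries, and its interval (0.649 to 143) covers theirs. The split was also chosen after the data were seen.

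Apart from Hmox1 in macrophage nuclei, no member tested passed the diet comparison in macrophage or endothelial nuclei. Nfe2l2 was at 156, 135 and 139.8 CPM in chow and 220.0 and 180.2 CPM in MASH macrophages (log2 fold change 0.47, adjusted p = 0.608). Its endothelial levels were 103, 113 and 134 CPM against 171 and 143 CPM (0.43, adjusted p = 0.619). Both MASH libraries were above chow in each class, as were 13.9% and 17.1% of genes. Of 8 members tested in endothelial nuclei by edgeR, 0 were called, and 1.61% of 10837 genes were. DESeq2 also called 0 members, and 0 had an unadjusted edgeR p under 0.05.

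Gstm1 varied between libraries of the same diet, at 214, 667 and 200.1 CPM in chow and 445 and 161 CPM in MASH endothelial nuclei. Chow 2 and MASH 1 were high in all 3 classes. These 2 libraries also had the highest median mitochondrial share of UMIs in each class. In hepatocyte nuclei it was 2.47% and 2.50%, against 0.406% to 0.978% in the other libraries. Its bearing on Gstm1 was not tested. Gstm3 was at 1 UMI in each chow macrophage library, and 51 and 18 UMIs in MASH, and was not tested there. Srxn1, Nqo1 and Gsta1 were also too low in macrophage nuclei.

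Across classes, averaged over the diets, Gclc had the largest hepatocyte excess of the 9 members tested. Its log2 excess was 1.21 over endothelial nuclei (adjusted p = 1.05e-06) and 1.37 over macrophage nuclei (adjusted p = 2.82e-07), and it passed without any 1 library. Nfe2l2 was 0.85 and 0.59 higher in hepatocyte nuclei (adjusted p = 2.33e-05 and 0.00285). Hmox1 was 2.70 lower in hepatocyte than in macrophage nuclei (adjusted p = 2.22e-14). In all, 7 of 9 members tested were called against endothelial nuclei (5 higher and 2 lower, with 56.1% of genes called) and 5 of 9 against macrophage nuclei (3 higher and 2 lower, with 49.5% called).

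**Figure D5:**
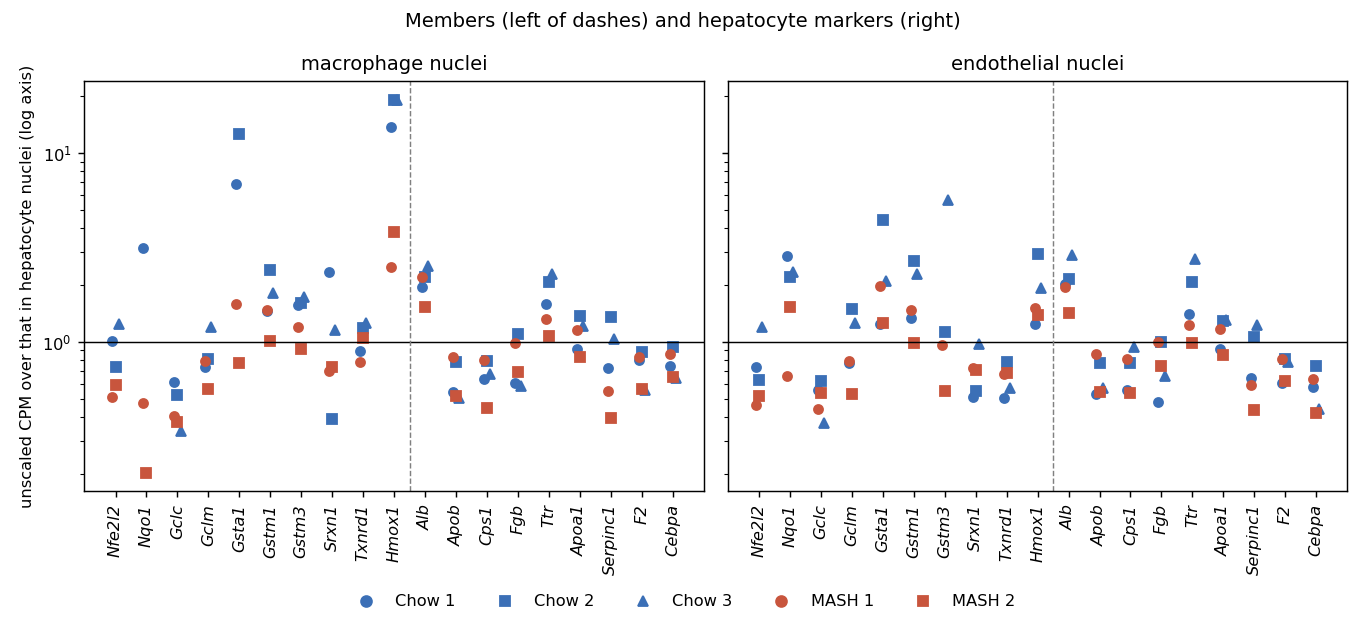
Unscaled CPM in macrophage (left) and endothelial (right) nuclei divided by that in hepatocyte nuclei of the same library, on a log axis, for the members and for 9 hepatocyte markers. Hmox1 in macrophage nuclei lies at 2.50 to 19.2, Gclc lies below 1 in both classes, and ratios of 0 are not drawn.

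Hepatocyte RNA outside hepatocytes sets the scale for these ratios. Other than Hnf4a, 9 hepatocyte markers had median ratios of 0.543 to 2.21 in macrophage nuclei and 0.572 to 2.02 in endothelial nuclei. Gclc had 0.402 and 0.537, below the range of those markers. Nfe2l2 (0.739 and 0.627), Gclm, Gsta1, Gstm1, Gstm3, Srxn1 and Txnrd1 lay inside it in both classes. The levels of these members, Gclc included, in macrophage and endothelial nuclei can therefore not be told apart from RNA of hepatocytes. The same holds for Hmox1 in endothelial nuclei, with a median ratio of 1.52. Hmox1 in macrophage nuclei, with a median ratio of 13.7, lay above that range.

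The genes most like Gstm3 were sought over the 15 sums of library and zone. Phldb1 had the highest Pearson r of log2 CPM (0.976), then Nfe2l2 (0.972) and Cyp2a22 (0.965), among 14221 genes. The 15 points share 5 libraries and 2 diets, so this describes a shared pattern over diet and zone. Nucleus by nucleus the members were only loosely related. Over the 45 pairs, Pearson r of log-scaled UMIs across the hepatocyte nuclei of a library ran from -0.0203 to 0.0826 in the chow libraries and from -0.0542 to 0.213 in the MASH libraries. Gstm1 with Gstm3 gave 0.192 in MASH 1 and 0.213 in MASH 2. These are descriptions of sparse counts.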

How the data were processed

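The deposited files hold raw UMI counts per gene and barcode, which the authors made from 10x 3′ v3 libraries of FACS-sorted nuclei. The submitters' notes name Cell Ranger 8.0.1 and GRCm38, and the study's methods state that intronic reads were left out. Libraries held 35612373 to 49137377 UMIs in 8633 to 12935 barcodes. Nuclei with under 300 genes were left out. Scrublet (scanpy 1.11.5) set an automatic threshold that marked 0 to 11 nuclei per library, so the highest scores were removed instead, 0.8% per 1000 nuclei, and 7969 to 11574 nuclei were kept.

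UMIs were summed per library and class and tested with edgeR 4.0.16 in R 4.3.3 (quasi-likelihood, TMM, filterByExpr, Benjamini-Hochberg adjustment over all genes tested, adjusted p under 0.05 called), which is the source of every adjusted p unless another tool is named. CPM are TMM-scaled unless called unscaled, as all marker sums and macrophage subsets are. Zones came from 10 pericentral and 11 periportal markers. DESeq2 1.42.0, other scalings, filters, gates and each library left out were alternatives. The code was tested on simulated data. Counting intervals cover counting error only. The named genes were all members, up to 4 called genes of each list with the largest absolute diet difference, 3 zoned transferases and the 3 genes most like Gstm3. The members and lists were chosen with earlier results of these data known.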

Additional observations from a re-analysis of the deposited data

Results flagged for a closer look

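The zonal slope of Gclc differed between the diets by -0.52 on the log2 scale (edgeR, adjusted p = 0.00685, from 2.31e-05 to 0.173 over the alternatives). It was higher in the pericentral zone in 3 of 3 chow libraries and lower in 2 of 2 MASH libraries.

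The diet difference of Hmox1 in macrophage nuclei minus that in hepatocyte nuclei was -2.12 (edgeR, adjusted p = 0.000272, from 2.04e-06 to 0.0293 over the alternatives), a test of the difference between the classes.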

How the results depend on the processing

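With 3 chow and 2 MASH libraries, the diet calls rest on few samples: with a MASH library left out, the lone one was assumed to vary like the chow libraries. Leaving out each library in turn gave 152 to 2903 genes and 0 to 2 members in the hepatocyte diet comparison, 10 to 163 genes and 0 to 1 members in macrophages, and 38 to 358 genes in endothelial nuclei. It gave 2041 to 3231 genes and 3 to 6 members between zones, 153 to 1000 genes and 0 to 3 members in the zone by diet interaction, 4 to 6 members against endothelial and 3 to 6 against macrophage nuclei, 33 to 483 and 78 to 451 genes in the class by diet interactions of endothelial and macrophage nuclei, and 4 to 7 members with separate shares. Causes were not tested.

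For hepatocytes, DESeq2 called 3118 genes, Storey q-values 3818 and a minimum of 10 CPM 749. Storey q-values called 4 members, and no filter, doublets kept or the replicate block called 1 (Gstm3). For macrophages, DESeq2 called 168 genes, no filter 497 and library size alone 180, and RLE size factors or a gate of 4 markers called 0 members. No filter gave 687 endothelial genes and 1214 interaction genes, and 3 interaction members were called with no filter, with the outermost nuclei of each library only or with doublets kept. Keeping doublets gave 517 and 721 genes in the class by diet interactions of endothelial and macrophage nuclei. For disease-associated markers, a minimum of 3 markers gave 1404 genes and 4 members, and 3000 to 6000 UMIs gave 443 genes.

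Same-numbered deviations from the group means were not alike. They had r of -0.0819 and -0.159 in hepatocyte, -0.131 and -0.281 in macrophage and -0.246 and -0.308 in endothelial nuclei. With 2 MASH libraries the deviations of one are the negative of the other's, so the values are not independent. The check can therefore not decide whether replicate numbers pair the libraries. The replicate block gave 277 macrophage and 104 endothelial genes, and Hmox1 in macrophages fell by 1.90 (adjusted p = 0.00524).

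Direction turned only for values that had not passed. In hepatocytes Gclc was 0.22 under the block and 0.22 with library size alone, and Hmox1 was 0.28 under the block. In macrophages Gclc was 0.0531 with no filter and 0.26 with doublets kept, Gclm -0.0378 with a gate of 4, and Gstm1 -0.37 under the block. In endothelial nuclei Txnrd1 was 0.0160 with no filter, 0.0761 under the block, 0.0167 with a gate of 4 and 0.13 with library size alone, and Hmox1 0.11 under the block. In the zone by diet interaction Nfe2l2 was -0.00846 with doublets kept and Gstm3 0.0802 with the outermost nuclei only.

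With each library left out in turn, the diet difference in hepatocytes ran from -0.49 to 0.19 for Gclc, -0.12 to 0.66 for Gstm1 and -0.91 to 0.23 for Hmox1. In macrophages it ran from -0.51 to 0.42 for Gclc, -0.25 to 0.55 for Gclm and -0.84 to 0.72 for Gstm1. In endothelial nuclei it ran from -0.17 to 0.31 for Gclc, -0.82 to 0.00755 for Gclm, -1.16 to 0.54 for Gstm1, -0.30 to 0.26 for Txnrd1 and -1.09 to 0.11 for Hmox1. The zone difference ran from -0.0889 to 0.41 for Nqo1 and -0.70 to 0.0852 for Gsta1, and the zone by diet interaction from -0.0861 to 0.0896 for Nfe2l2, -0.80 to 0.14 for Gstm3 and -0.38 to 0.31 for Srxn1. The hepatocyte excess over endothelial nuclei ran from -0.42 to 1.0 for Gstm3, and the endothelial class by diet interaction from -0.47 to 0.16 for Hmox1.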

Other observations

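Other genes of the pathway were called in comparisons in which the text above gives members only. In the zone by diet interaction, 5.51% of genes were called. A lower pericentral slope in MASH was found for 3 of 18 genes of glutathione cycling and 4 of 19 further NRF2 targets. The same held for 2 of 19 other transferases and 1 of 6 genes of heme breakdown and synthesis. A higher slope was found for 1 of 11 NRF2 regulators and 1 of 12 genes of the thioredoxin and peroxiredoxin list. In MASH nuclei with disease-associated markers (6.09% of genes called), 3 of 11 NRF2 regulators and 4 of 18 further targets were higher, whereas 4 of 18 other transferases and 3 of 17 genes of glutathione cycling were lower. Among the further targets 1 was lower, and among the regulators 0 were. In the thioredoxin and peroxiredoxin list 1 of 12 was higher, and among the genes of heme breakdown and synthesis 1 of 6 was lower.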
